A study of Homo sapiens with 40 samples.

Results

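The genes described here are 35 genes of glycolysis and of the response to low oxygen, taken as the rows of the deposited expression table whose Ensembl ID maps to their symbols, out of 60504 genes in all. They comprise 16 glycolytic enzymes, 6 genes of lactate handling and flux control, 4 genes of oxygen sensing and 9 targets of the hypoxia response. RNA was sequenced from 40 libraries of human microglia-like cells (hMGLs), differentiated from the human embryonic stem cell line H9. WT cells (7 libraries) were unedited H9, and the edited clones, made homozygous by CRISPR/Cas9, were TREM2-KO (8 libraries), TREM2-R47H (7), SORL1-KO (7), SORL1-A528T (7), CD33 SNP (2) and INPP5D SNP (2). The labels describe the SORL1 edit as a stop-gain change and call the samples SORL1-KO, and H9 was heterozygous at the INPP5D site before it was converted. All groups shared the same culture of 28 days with M-CSF at 25 ng/mL, TGF-beta 1 at 50 ng/mL and IL-34 at 100 ng/mL, to which CD200 and CX3CL1, each at 100 ng/mL, were added for the last 3 days. Neither the number of clones per line nor the oxygen level of the cultures is given in the labels.

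Glycolysis splits glucose into pyruvate in the cytosol, and lactate dehydrogenase turns pyruvate into lactate when it is not sent to mitochondria. When oxygen is low, the prolyl hydroxylases EGLN1 and EGLN3 no longer mark HIF-1α (encoded by HIF1A) for destruction, and HIF then activates most glycolytic genes together with targets such as BNIP3L and KDM3A. Much of that control acts on the HIF-1α protein, which RNA does not report. Microglia and other macrophages raise glycolysis when they are activated, and TREM2, a lipid receptor of microglia, has been tied to their energy metabolism.

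The promoters of 4 of these genes are printed to show where the core letters of the HIF binding motif lie beside genes whose RNA is described below: 3 that differed between the TREM2 lines, and PGK1, a classical HIF target. The sequences are from RefSeq (GRCh38.p14), each read on the plus strand, and end at the base before the transcription start, except that PGK1 stops where its annotated UTR begins. Capitals mark ACGTG and GCGTG, or CACGT and CACGC where the motif is on the other strand.
PFKP, chr10:3067720-3067969: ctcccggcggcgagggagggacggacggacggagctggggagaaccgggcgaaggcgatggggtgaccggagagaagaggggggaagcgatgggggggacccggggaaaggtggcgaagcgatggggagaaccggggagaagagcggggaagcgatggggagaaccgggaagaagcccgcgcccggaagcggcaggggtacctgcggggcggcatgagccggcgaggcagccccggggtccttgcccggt
PFKFB3, chr10:6144671-6144920: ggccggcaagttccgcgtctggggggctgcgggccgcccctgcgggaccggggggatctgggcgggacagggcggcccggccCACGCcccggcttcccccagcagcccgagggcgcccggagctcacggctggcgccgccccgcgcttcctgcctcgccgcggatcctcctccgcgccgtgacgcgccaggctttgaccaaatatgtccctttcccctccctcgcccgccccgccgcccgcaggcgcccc
HIF1A, chr14:61695263-61695512: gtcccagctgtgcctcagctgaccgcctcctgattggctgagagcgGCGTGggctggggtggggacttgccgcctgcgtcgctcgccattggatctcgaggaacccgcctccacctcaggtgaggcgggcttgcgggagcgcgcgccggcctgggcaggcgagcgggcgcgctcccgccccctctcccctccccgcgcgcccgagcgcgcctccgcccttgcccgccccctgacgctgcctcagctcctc
PGK1, chrX:78103998-78104173: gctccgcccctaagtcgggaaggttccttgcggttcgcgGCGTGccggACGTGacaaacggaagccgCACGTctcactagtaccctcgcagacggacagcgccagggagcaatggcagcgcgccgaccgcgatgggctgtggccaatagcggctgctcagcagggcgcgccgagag
The PFKP and PGK1 stretches lie inside the longer gene models of GENCODE 29, and the PFKFB3 and HIF1A stretches lie before the start of theirs. PFKP, which encodes the platelet isoform of phosphofructokinase, holds no match in this window, PFKFB3 and HIF1A hold 1 each and PGK1 holds 3. Promoters of 33 of the 35 genes were found in the RefSeq table, and 22 of them (66.7%) hold at least 1 match in the 250 bases before the start. The same letters occur in 43.2% of 35116 promoters of that length and in 57.3% of those of the 10431 expressed genes found. The listed genes' promoters are also richer in G and C (median 69.6%) than all promoters (58.0%) or those of expressed genes (64.8%), and the part of base composition in the share was not tested.

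Values are TPM, a unit corrected for library size and transcript length, so that levels of different genes can be compared, and differences are log2 differences of TPM + 1 with limma's standard error and its p-value adjusted over the 14855 genes that reached 1 TPM in 7 libraries or more. A gene is called when that adjusted p is below 0.05, and the filter kept 34 of the 35 genes. Read counts were not used, so depth is known only from the labels (a mean of 45.13 M reads, from 39.2 to 64.6 M), and 13208 to 14086 genes per library reached 1 TPM. The edits were visible where RNA can show them: TREM2 was at 35.3 ± 8.39 TPM in TREM2-KO (SD, n = 8) against 457 ± 120 in WT (SD, n = 7), and SORL1 was at 16.1 ± 3.00 TPM in SORL1-KO (SD, n = 7) against 33.3 ± 9.74 in WT (SD, n = 7). General microglial and macrophage markers were abundant in every library (TYROBP 1216 to 2758 TPM, CSF1R 600.3 to 1290 TPM). Markers more particular to microglia varied in level. SALL1 stayed at or below 0.47 TPM and TMEM119 between 1.04 and 14.6 TPM. CX3CR1 was at 98.8 to 609 TPM, GPR34 at 210 to 671.5 TPM, P2RY12 at 10.4 to 81.9 TPM and P2RY13 at 7.51 to 76.6 TPM. Since these are bulk cultures, fewer cells of a type and less RNA per cell cannot be told apart.

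A set of 3 libraries stood apart from the rest of their groups across all genes: TREM2-KO 8, SORL1-KO 7 and SORL1-A528T 7. The SD over genes of the log2 difference from the group's median was 0.69, 0.68 and 0.61 in them, the 3 highest of the 36 libraries in groups of 7 or 8, followed by TREM2-KO 4 (0.58), TREM2-R47H 4 (0.47) and SORL1-KO 4 (0.46). Some pairs of libraries within a group were closely alike: the SD over genes of the log2 difference was 0.150 to 0.165 between libraries 5 and 6 of the TREM2 and SORL1 lines (0.199 in WT), and 0.158, 0.174 and 0.179 between libraries 1 and 7 of TREM2-R47H, TREM2-KO and WT. The labels do not say whether they came from separate cultures.

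In WT cells the middle and lower steps of glycolysis were among the most abundant RNAs of the cell. GAPDH, which oxidizes glyceraldehyde phosphate, was at 2525 ± 46.8 TPM (SD, n = 7), followed by aldolase A (ALDOA) at 1593 ± 108, pyruvate kinase (PKM) at 1346 ± 53.9 and enolase 1 (ENO1) at 1206 ± 81.8. TPI1, LDHB, LDHA and PGK1 followed, at 635 ± 24.2, 616 ± 16.7, 546 ± 25.6 and 458 ± 26.0 TPM, and PGAM1 and GPI were at 285 ± 25.3 and 222 ± 16.6 TPM. Over all 40 libraries GAPDH ranked 47th and ALDOA 107th of all genes by mean TPM. Hexokinase and the regulators of phosphofructokinase were lower. Hexokinase 1 (HK1), which traps glucose in the cell, was at 89.4 ± 13.5 TPM, phosphofructokinase L (PFKL) at 195 ± 25.1, and PFKFB3 and PFKFB4, which make and remove the fructose bisphosphate that activates phosphofructokinase, were at 26.0 ± 2.61 and 7.16 ± 1.44. PDK1 and PDK3, kinases that inhibit pyruvate dehydrogenase, were at 5.91 ± 0.58 and 13.3 ± 1.69.

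One isozyme dominated most steps in WT, and the rest were minor. ENO2, the enolase of neurons, made up 0.17% ± 0.037 of enolase TPM (SD, n = 7), and ALDOC made up 0.56% ± 0.12 of aldolase TPM. PFKM, the muscle phosphofructokinase, made up 8.41% ± 1.78 of its family. Lactate dehydrogenase was the exception, with LDHB, the isozyme that favours the oxidation of lactate, at 53.0% ± 1.45 and LDHA, which favours lactate production, making up the rest. The 3 hexokinases were all expressed, HK2 at 23.8% ± 5.24 and HK3, a hexokinase of blood cells, at 19.7% ± 7.87. Of 36 comparisons between lines of 6 such shares (HK2, HK3, PFKM, ALDOC, ENO2 and LDHB), none passed a two-sided exact permutation test after Benjamini-Hochberg adjustment, and 3 had an unadjusted p below 0.05. The ENO2 share came closest, at 0.24% ± 0.033 in TREM2-R47H (n = 7) against the WT value above (exact permutation p = 0.00641, adjusted p = 0.231). The others were the HK3 share in TREM2-KO, 13.2% ± 3.05 (n = 8; exact permutation p = 0.0463, adjusted p = 0.424), and the ALDOC share in TREM2-R47H, 0.73% ± 0.17 (n = 7; exact permutation p = 0.0484, adjusted p = 0.424). The PFKP share was not among those tested and is given as values. It was 17.4% to 22.1% of phosphofructokinase TPM in TREM2-R47H, above all libraries of WT (11.7% to 16.3%) and of TREM2-KO (2.23% to 12.8%), and the last of these ranges overlapped that of WT.

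Among the oxygen sensors HIF1A was the highest in WT, at 152 ± 42.5 TPM (SD, n = 7), while EPAS1, which encodes HIF-2α, was at 9.65 ± 3.49 and EGLN1 at 26.1 ± 3.47. EGLN3, a hydroxylase that HIF itself induces, was near 0 in most libraries and did not pass the filter, so it was not tested. It reached 1 TPM in 6 libraries, WT 2, 4, 5 and 6 (1.03, 1.78, 2.10 and 3.91 TPM) and both INPP5D SNP libraries (1.06 and 3.03 TPM), and 4 libraries were listed at 0. Those 6 libraries were also the 6 with the highest score of 13 endothelial and stromal markers (mean log2 of 4.08 to 5.78), and the next highest, TREM2-KO 6, had a score of 3.31 and EGLN3 at 0.32 TPM. Of those markers the endothelial CDH5 stayed at or below 0.23 TPM in all 40 libraries, while the collagen gene COL3A1 reached 1233 TPM in WT and 714 TPM in INPP5D SNP. Their part in the level of EGLN3 was not tested.

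Hypoxia targets differed widely in level. NDRG1, a stress-response gene, was at 83.8 ± 22.6 TPM in WT (SD, n = 7), DDIT4, an inhibitor of mTORC1, at 73.7 ± 12.1, and BNIP3L, a mitophagy receptor, at 42.1 ± 9.59. P4HA1, a collagen prolyl hydroxylase, was at 39.5 ± 3.57, the histone demethylase KDM3A at 15.7 ± 1.25 and the vasodilator peptide ADM at 10.9 ± 4.16. MXI1, a MYC antagonist, and ANKRD37 were both under 3 TPM on average. BNIP3, also a mitophagy receptor, was at 3.92 ± 2.02, and its 44 annotated pseudogenes in the table summed to 33.2% of its TPM over all libraries, so that its value is uncertain.

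**Figure D1:**
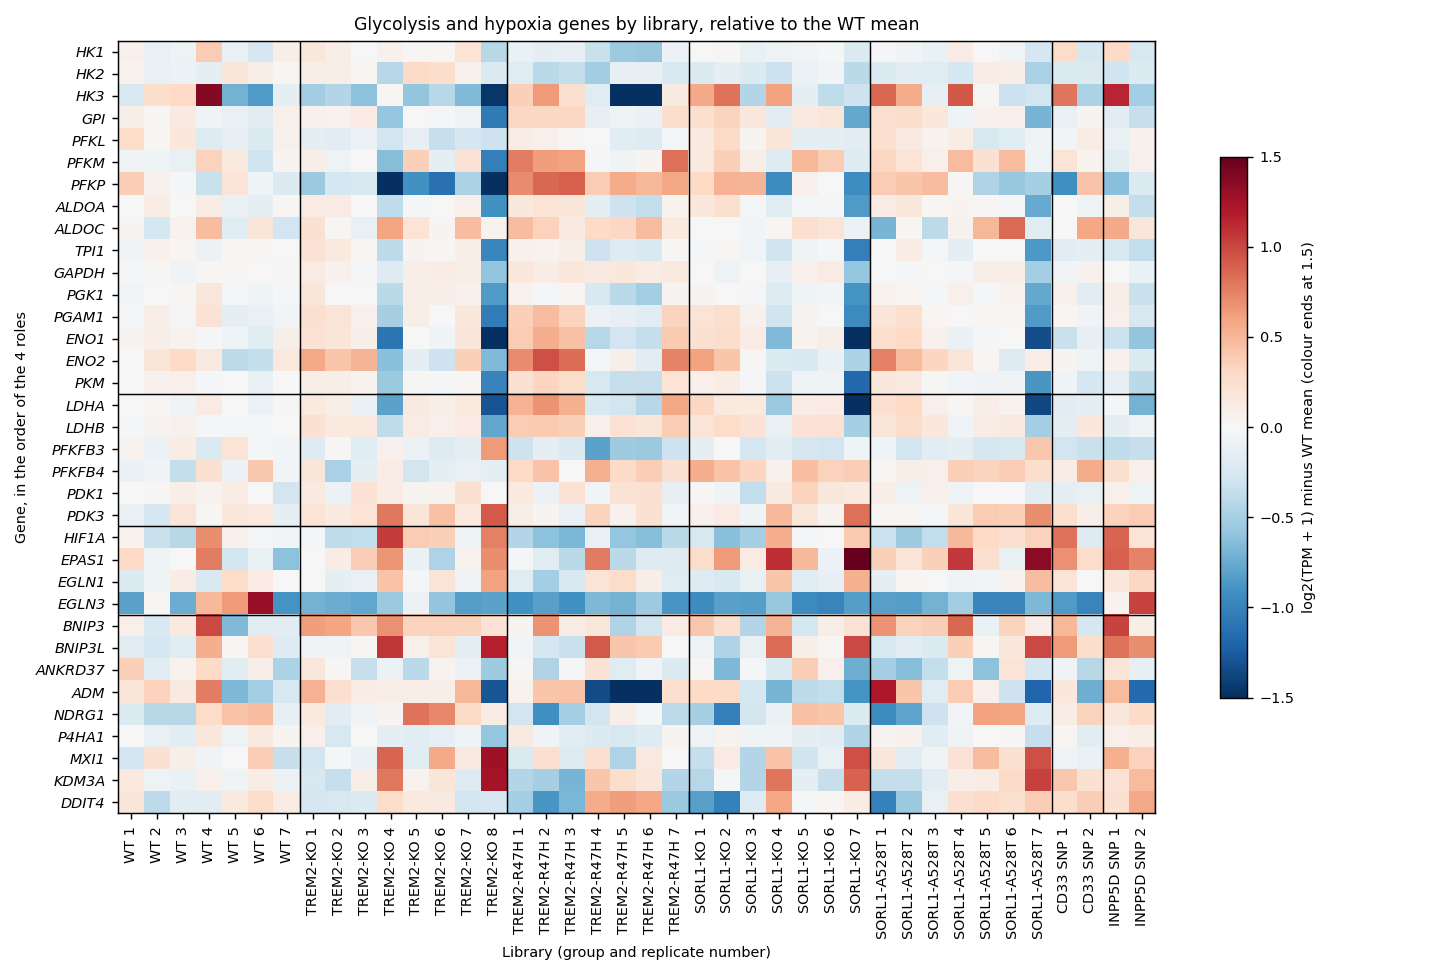
Each cell is 1 of the 35 genes (rows, by role) in 1 of the 40 libraries (columns, by group and number), coloured by log2(TPM + 1) minus the WT mean, with colours ending at 1.5 in either direction. TREM2-KO 8, SORL1-KO 7 and SORL1-A528T 7 are blue across most enzymes and red for BNIP3L, MXI1 and KDM3A, and TREM2-R47H 1, 2, 3 and 7 differ from TREM2-R47H 4, 5 and 6.

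Many of these genes differed between libraries of one group, and in the same direction in each of the 3 libraries that stood apart. In all 3 of them, 14 of the 35 genes lay below every other library of their own group: GPI, ALDOA, TPI1, GAPDH, PGK1, PGAM1, ENO1, PKM, LDHA, LDHB, HK1, PFKM, ADM and P4HA1. Another 6 lay above every other library in all 3: PDK3, EPAS1, EGLN1, BNIP3L, MXI1 and KDM3A. Of all 14855 kept genes, 15.3% lay below and 16.3% above in all 3 in the same way. Of the 16 glycolytic enzymes 13 lay below the rest of the group in TREM2-KO 8, 14 in SORL1-KO 7 and 11 in SORL1-A528T 7, and none lay above it in any of the 3. Shares of all genes were counted only for the 3 libraries jointly, so these counts by library have no matching background.

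LDHA shows the size of this. It was at 221 TPM in TREM2-KO 8, 172 in SORL1-KO 7 and 210 in SORL1-A528T 7, whereas the 7 WT libraries lay between 511 and 592 TPM. The highest WT library was 1.16 times the lowest, and over all 40 libraries this ratio was 5.06. ENO1 was at 381, 377 and 479 TPM in the same 3 libraries, below every WT library (1058 to 1287 TPM). The summed TPM of 10 abundant enzymes (GPI, ALDOA, TPI1, GAPDH, PGK1, PGAM1, ENO1, PKM, LDHA and LDHB) was 4968, 4976 and 5481, against 8948 to 9799 in WT. The 3 libraries thus held about the same low level of these enzymes although they belong to different lines.

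Some targets and sensors went the other way in the same libraries. BNIP3L was at 93.6, 82.9 and 83.2 TPM, above every WT library (34.3 to 60.7 TPM), and KDM3A was at 38.5, 29.8 and 33.1 TPM against 14.5 to 17.5 in WT. HIF1A was at 249.2, 194 and 188 TPM, the first above and the others within the WT range of 110 to 240 TPM. TREM2-KO 4 and SORL1-KO 4 had LDHA at 313 and 371 TPM, BNIP3L at 87.7 and 74.6 TPM and HIF1A at 307 and 215 TPM, so both shared the direction. In all, 7 of the 40 libraries had the summed enzymes, LDHA, ENO1 and PKM below, and BNIP3L and KDM3A above, every WT library: the 5 libraries just described, TREM2-R47H 4 (LDHA 465, BNIP3L 79.1 TPM) and INPP5D SNP 2 (LDHA 334, BNIP3L 67.7 TPM). CD33 SNP 1 did so except for PKM. By its definition no WT library can show this pattern, and how often other sets of genes would show one like it was not counted. It also leaves out ADM and P4HA1, targets that lay below the rest of the group in all 3 libraries that stood apart. The summed level of 18 microglia and macrophage markers was 14983, 16272 and 14853 TPM in the 3 libraries and 14948 in TREM2-KO 4, the 4 highest of the 40, against 9693 to 11626 in WT. Its part in the lower enzyme RNA was not tested, and results below are given without the 3 libraries where a call changes.

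**Figure D2:**
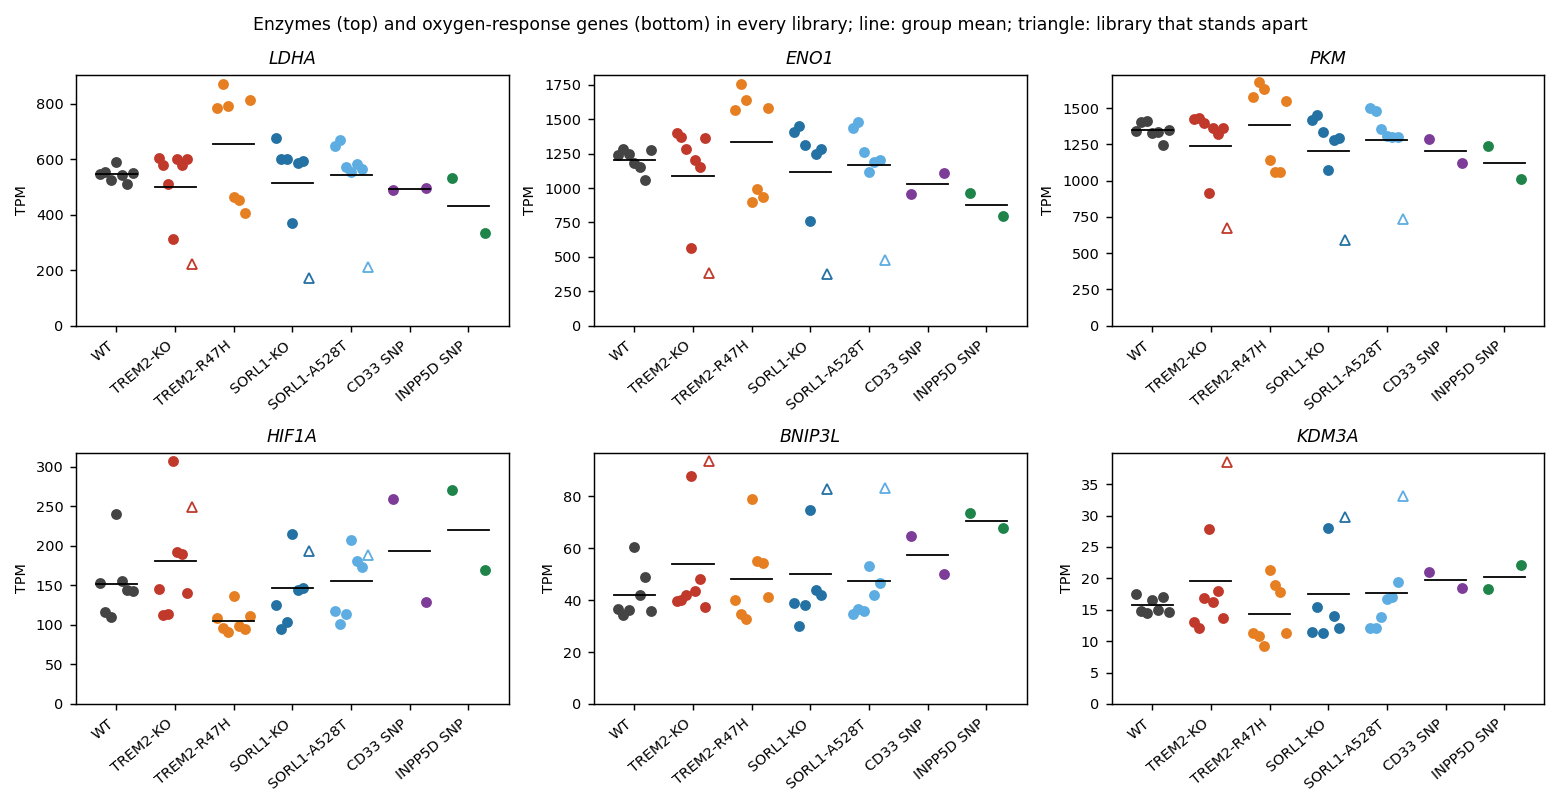
Each point is 1 library, with TPM on the vertical axis from 0 and the 7 groups on the horizontal axis. Lines are group means and open triangles are TREM2-KO 8, SORL1-KO 7 and SORL1-A528T 7. LDHA, ENO1 and PKM are lowest at the triangles, BNIP3L and KDM3A are highest there, and the WT libraries of LDHA lie between 511 and 592 TPM.

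Loss of TREM2 was compared with WT first. None of the 34 tested genes was called in TREM2-KO, where 1.61% of all genes were (0.283% higher and 1.33% lower), and 4 had an unadjusted limma p below 0.05: PFKL, PFKP, PDK3 and BNIP3. Of the 16 enzymes 4 had a positive difference, with a median of -0.11 beside -0.003 over all genes, and of the 9 hypoxia targets 6 had a positive one, with a median of 0.20. The direction of the enzymes differed between 2 sets of library numbers, formed after the values had been seen. In numbers 1 to 3 alone 12 of the 16 were positive (median 0.08), and in numbers 4 to 6 alone 2 were (median -0.10). The libraries of the second set were not alike. The summed TPM of the 10 abundant enzymes was 6865 in TREM2-KO 4, against 9636 in WT 4. In TREM2-KO 5 and 6 it was 9773 and 9655, above the 9213 and 8948 of WT 5 and 6. The sign differed between these sets for 58.8% of the 34 genes and for 45.6% of all genes. PFKP was at 3.76, 20.3 and 28.96 TPM in TREM2-KO (lowest, median and highest of 8) and at 26.9, 33.4 and 44.4 TPM in WT (n = 7). All 8 TREM2-KO libraries were below the WT mean, and the ranges overlapped. The difference was -1.10 ± 0.30 (SE) with a limma adjusted p of 0.0525.

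The library number paired TREM2-KO with WT by residual correlation (0.114 to 0.312 over 7 numbers), though only 3 of the 7 correlated best with the WT library of their own number. With the number as a block, PFKP (-0.84 ± 0.20 SE, limma adjusted p = 0.0122) and PFKL, the liver phosphofructokinase (-0.20 ± 0.058 SE, limma adjusted p = 0.0456), were called lower, among 3.95% of all genes. That fit takes nothing from TREM2-KO 8, which has no partner of its number. PDK3 was at 17.9 ± 4.44 TPM in TREM2-KO (SD, n = 8) against 13.3 ± 1.69 in WT (SD, n = 7), above the WT mean in 8 of 8 libraries. Its difference was 0.38 ± 0.13 (SE) with a limma adjusted p of 0.13. Among 63 tested genes of the same pathways outside the list of 35, 2 were called lower in TREM2-KO and none higher, beside the 1.61% of all genes above. These were PC, pyruvate carboxylase (-0.47, limma adjusted p = 0.0366), and STC2, a secreted glycoprotein induced by HIF (-0.94, limma adjusted p = 0.0337), whose mean was 0.54 TPM against 2.10 in WT. In the same comparison 3 of 10 tested endothelial and stromal markers were called lower (sums of 196 to 465.5 TPM against 190 to 3282) and 2 of 8 cycling markers higher, and their part in these differences was not tested. Most of the TREM2-KO sum of stromal markers (mean 335 TPM) was PECAM1 (mean 265 TPM), which macrophages also express.

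The R47H change, a coding variant of TREM2, gave 2 called genes of 34, both lower, where 11.4% of all genes were called (2.63% higher and 8.77% lower). The share of called genes in the list (5.88%) was below that background. PFKFB3, whose product raises phosphofructokinase activity, was at 14.4, 20.7 and 23.4 TPM in TREM2-R47H (lowest, median and highest of 7) and at 22.1, 25.4 and 30.1 TPM in WT (n = 7). All 7 TREM2-R47H libraries were below the WT mean, and 1 WT library (22.1 TPM) lay within their range. It fell by 0.41 ± 0.11 (SE) on the log2 scale (limma adjusted p = 0.0105), and was called without any 1 of the 14 libraries. With libraries 5 and 6 of each group averaged into 1 it was not (limma adjusted p = 0.0529), and no gene of the 34 was called then. With libraries 1 and 7 averaged it was called (0.0172) and HK2 below was not (0.0737).

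HK2, the inducible hexokinase that binds mitochondria, was at 25.2, 31.1 and 33.4 TPM in TREM2-R47H and at 32.8, 36.8 and 41.6 TPM in WT. All 7 TREM2-R47H libraries were below the WT mean, with a narrow overlap. It fell by 0.28 ± 0.093 (SE) on the log2 scale (limma adjusted p = 0.0473). This call lay close to the threshold and was lost in 9 of the 14 fits that left out 1 library. These were the fits without WT 1, 5, 6 or 7 or TREM2-R47H 1, 2, 3, 4 or 7 (limma adjusted p of 0.051 to 0.11). It was also lost with libraries 5 and 6 averaged (0.0705), with no filter (0.1), with median-ratio scaling (0.224) and with a stromal marker score as a covariate (0.17). With median-ratio scaling PFKFB4 (0.37, limma adjusted p = 0.0181) was called higher, a split of 1 higher and 1 lower in place of 0 and 2.

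Stromal and myeloid markers differed in the same comparison. The 13 endothelial and stromal markers summed to 190 to 3282 TPM in WT and to 136 to 277 TPM in TREM2-R47H, and 5 of 10 tested were called lower and none higher. Most of the TREM2-R47H sum (mean 213 TPM) was PECAM1 (mean 144 TPM), which macrophages also express. Of 17 tested microglia and macrophage markers 4 were called lower and 1 higher, with sums of 7461 to 11133 TPM against 9693 to 11626 in WT. With the stromal score as a covariate PFKFB3 (-0.42, limma adjusted p = 0.0343) and HK1 (-0.37, limma adjusted p = 0.0327) were called lower and PFKFB4 (0.39, limma adjusted p = 0.0312) higher. The part of the microglia markers was not tested.

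A further 3 genes did not overlap between TREM2-R47H and WT and were still not called in the fit of all libraries, where 4.62% of all genes did not overlap. PFKP was at 44.8, 51.7 and 64.7 TPM (lowest, median and highest of 7) against 26.9, 33.4 and 44.4 in WT (0.64 ± 0.31 SE, limma adjusted p = 0.204). LDHB was at 649, 789 and 811 TPM against 601, 605 and 642 in WT (0.28 ± 0.13 SE, limma adjusted p = 0.153). GAPDH was at 2737, 2787 and 2848 TPM against 2430, 2549 and 2563 in WT (0.14 ± 0.093 SE, limma adjusted p = 0.382). Every TREM2-R47H library was above every WT library for these 3 enzymes. The fit estimates one spread from all 7 groups, including the 3 libraries that stood apart. Without these, GAPDH (limma adjusted p = 0.0162), LDHB (0.0059) and HK1 (lower, 0.0388) were called as well, giving 5 genes of 34 where 15.3% of all genes were called.

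The library number paired TREM2-R47H with WT too (residual correlation of 0.140 to 0.278 over 7 numbers), though only 4 of the 7 correlated best with the WT library of their own number. With the number as a block 9 genes were called, where 19.6% of all genes were. PFKP (limma adjusted p = 0.0223), ENO2 (0.0135), LDHB (0.0183) and PFKFB4 (0.0334) were higher, and HK1 (0.0205), HK2 (0.00102), PFKFB3 (0.00093), HIF1A (0.00147) and NDRG1 (0.0278) were lower. The differences were those of the fit without a block (HIF1A -0.50, NDRG1 -0.33, ENO2 0.45, PFKFB4 0.30).

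**Figure D3:**
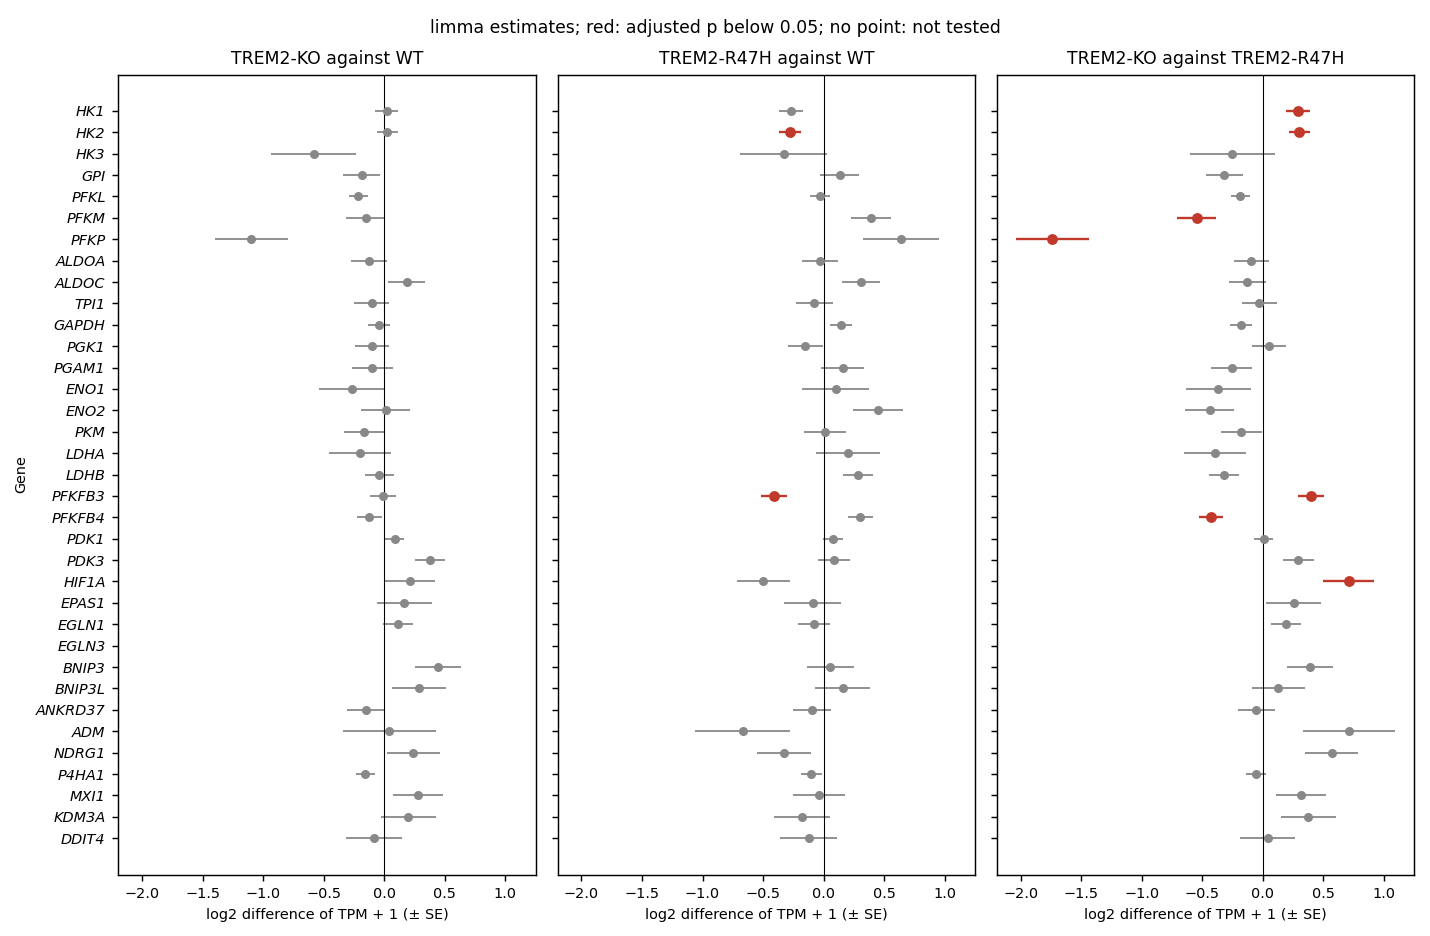
Points are limma log2 differences of TPM + 1 for 34 genes (rows) with SE bars, for TREM2-KO against WT, TREM2-R47H against WT and TREM2-KO against TREM2-R47H. Red points have an adjusted p below 0.05: none in the first panel, HK2 and PFKFB3 in the second and 7 genes in the third, of which PFKP (-1.74) lies farthest from 0.

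Within TREM2-R47H many of the enzymes lay at different levels by library number. In libraries 1, 2, 3 and 7, 12 of the 16 glycolytic enzymes were above all values of libraries 4, 5 and 6, as were 18.3% of all genes, and none was below all of them, as were 21.3% of all genes. The exceptions were PFKL, HK2, GAPDH and ALDOC, whose ranges overlapped. LDHA was at 784, 871, 791 and 815 TPM in libraries 1, 2, 3 and 7, and at 465, 452 and 406 TPM in libraries 4, 5 and 6, while WT stayed between 511 and 592 TPM at every number. TREM2-R47H thus lay above all WT libraries at some numbers and below all of them at others. PKM followed it (1549 to 1677 TPM and 1057 to 1140 TPM, against 1248 to 1413 in WT). The labels do not say what a number stands for, and the sets 1 to 3 and 4 to 6 were formed after these values had been seen.

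When each set was compared with the WT libraries of the same numbers, 12 genes of 34 were called in numbers 1 to 3, where 23.7% of all genes were. Higher were GPI, PFKM (0.74 ± 0.087 SE, limma adjusted p = 4.5e-05), PFKP, GAPDH, PGAM1, ENO1 (0.39 ± 0.066 SE, limma adjusted p = 0.000671), ENO2, PKM, LDHA (0.59 ± 0.076 SE, limma adjusted p = 9.3e-05) and LDHB. Lower were HK2 and KDM3A. In numbers 4 to 6, 4 genes were called, where 5.47% of all genes were: HK1 (-0.49), PFKFB3 (-0.62), ADM (-1.81) and P4HA1 (-0.29), all lower. The median difference of the 16 enzymes was 0.23 in numbers 1 to 3 and -0.17 in numbers 4 to 6, beside -0.08 and -0.06 over all genes. The sign differed between the sets for 50.0% of the 34 genes and for 43.8% of all genes, and the difference between the sets was not tested.

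Hypoxia targets also differed between these 2 sets of TREM2-R47H libraries. Of the 9, ADM and P4HA1 lay above in libraries 1, 2, 3 and 7, and BNIP3L, NDRG1, KDM3A and DDIT4 lay below. Of all genes 18.3% lay above and 21.3% below in the same way. Of the 4 oxygen sensors EGLN1 lay below as well, as did EGLN3, which was under 1 TPM in this line. ADM was at 10.7, 14.1, 14.2 and 12.4 TPM in TREM2-R47H 1, 2, 3 and 7 and at 3.46, 2.06 and 0.85 TPM in 4, 5 and 6, the last of which was the lowest of all 40 libraries. DDIT4 was at 39.2 to 50.7 TPM in the former and at 108 to 113 TPM in the latter, against 55.1 to 88.4 TPM in WT. ADM was thus low, and DDIT4 high, in the libraries with low LDHA. Microglia and macrophage markers summed to 7461 to 8160 TPM in TREM2-R47H 1, 2, 3 and 7 and to 9252 to 11133 TPM in 4, 5 and 6, and their part in the split was not tested. In numbers 1 to 3 and 4 to 6 of the other lines with 7 or more libraries, 1 and 0 genes of 34 were called against WT in TREM2-KO (1.98% and 0.491% of all genes), 1 and 0 in SORL1-KO (2.83% and 1.35%) and 0 and 0 in SORL1-A528T (0.283% and 1.05%), near the share of all genes called.

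**Figure D4:**
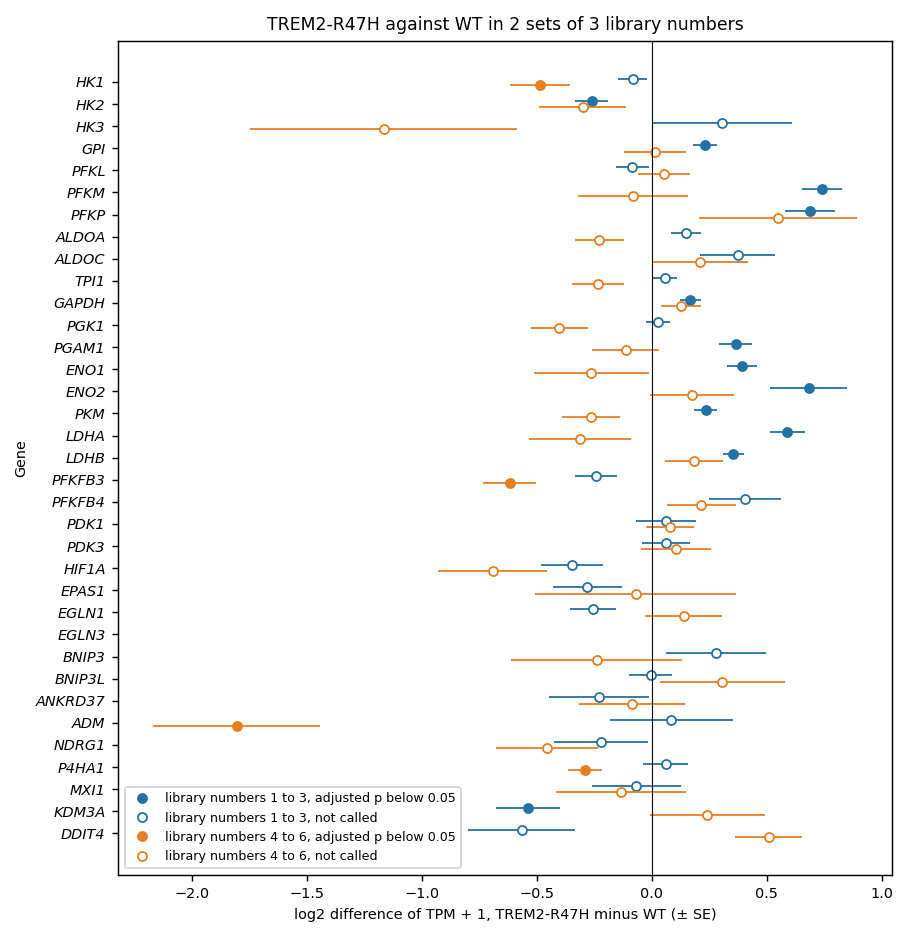
Points are limma log2 differences of TPM + 1 between TREM2-R47H and WT with SE bars, from libraries 1 to 3 (blue) and libraries 4 to 6 (orange) of each group. Filled points have an adjusted p below 0.05. LDHA is at 0.59 in the first set and left of 0 in the second, and ADM is at -1.81 in the second.

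The 2 lines of TREM2 were then compared with each other. Of 34 genes 7 were called (20.6%), a share close to the 21.3% of all genes called (14.7% higher and 6.58% lower). They were HIF1A and some of the hexokinases, phosphofructokinases and their regulators. HK3, GPI, PFKL, ALDOA and ALDOC, which also act in the first steps of glycolysis, were not called. HK1 (ENSG00000156515, chr10:69269984-69401884), HK2 (ENSG00000159399, chr2:74833981-74893359), PFKFB3 (ENSG00000170525, chr10:6144934-6254644) and HIF1A (ENSG00000100644, chr14:61695513-61748259; positions on GRCh38 from GENCODE 29) were higher in TREM2-KO, and PFKM (ENSG00000152556, chr12:48105139-48146404), PFKP (ENSG00000067057, chr10:3066333-3137712) and PFKFB4 (ENSG00000114268, chr3:48517684-48562015) were lower. With median-ratio scaling 2 were higher and 5 lower. None of the 9 hypoxia targets was called, although 7 of them had a positive difference, with a median of 0.32 beside 0.06 over all genes.

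PFKP differed most. It was at 3.76, 20.3 and 28.96 TPM in TREM2-KO (lowest, median and highest of 8) and at 44.8, 51.7 and 64.7 TPM in TREM2-R47H (n = 7), and the groups did not overlap, as for 5.82% of all genes. It was lower in TREM2-KO by a log2 difference of -1.74 ± 0.30 (SE; limma adjusted p = 5.1e-05), and by -1.48 without the 3 libraries that stood apart (limma adjusted p = 4.4e-05). The mean of TREM2-KO was 0.53 times and that of TREM2-R47H 1.57 times the WT mean. Across the groups PFKP was highest in TREM2-R47H (54.2 ± 7.34 TPM, SD), followed by SORL1-KO (35.2 ± 13.5), SORL1-A528T (34.9 ± 11.2) and WT (34.6 ± 5.88), which lie within each other's spread, then CD33 SNP (17.6 and 46.1 TPM in its 2 libraries), INPP5D SNP (21.8 and 29.2 TPM) and TREM2-KO (18.4 ± 9.60).

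PFKM was at 9.61, 20.1 and 26.7 TPM in TREM2-KO and at 19.6, 31.7 and 37.3 TPM in TREM2-R47H, where libraries 4, 5 and 6 (20.1, 19.6 and 21.2 TPM) lay within the TREM2-KO range. It was lower in TREM2-KO by -0.55 ± 0.16 (SE; limma adjusted p = 0.0132). The difference was -0.12 in library numbers 4 to 6 alone (limma adjusted p = 0.851), and it was not called when the 2 groups were fitted alone (0.0838). PFKL, the most abundant of the family, was at 167 ± 11.5 TPM in TREM2-KO and 190 ± 15.04 in TREM2-R47H and was not called (-0.19, limma adjusted p = 0.088).

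**Figure D5:**
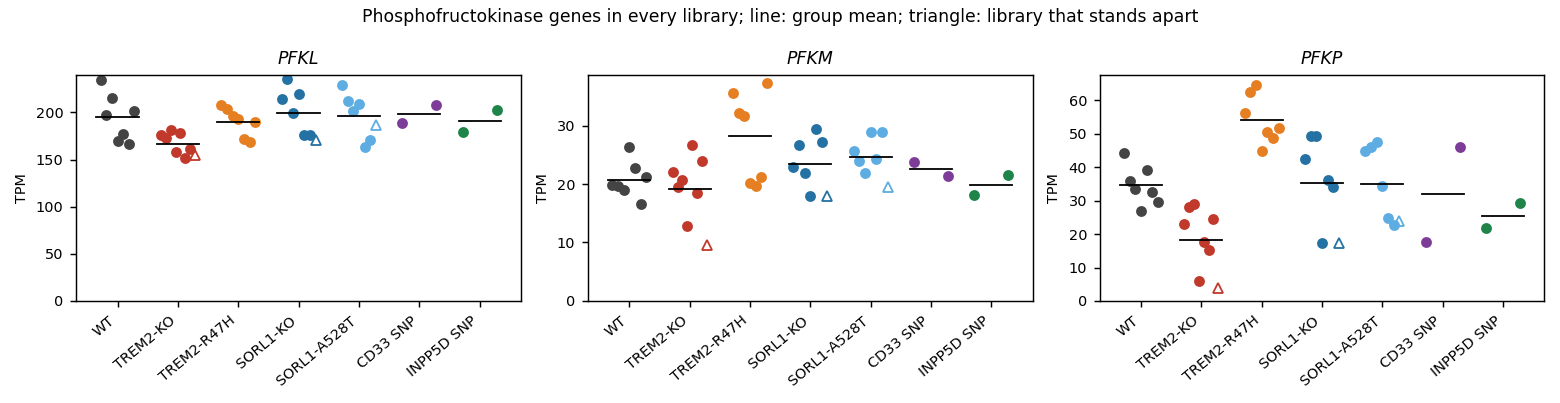
Each point is 1 library and the vertical axes show TPM from 0 for PFKL, PFKM and PFKP in the 7 groups, with lines at group means and open triangles for TREM2-KO 8, SORL1-KO 7 and SORL1-A528T 7. For PFKP all 8 TREM2-KO libraries (3.76 to 28.96 TPM) lie below all 7 TREM2-R47H libraries (44.8 to 64.7 TPM).

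The paired regulators of phosphofructokinase went opposite ways. PFKFB3 was at 22.5, 23.9 and 40.9 TPM in TREM2-KO and at 14.4, 20.7 and 23.4 TPM in TREM2-R47H, higher in TREM2-KO by 0.40 ± 0.11 (SE; limma adjusted p = 0.00546). The highest value was that of TREM2-KO 8, without which the difference was 0.31 and still called (limma adjusted p = 0.00347, all 3 libraries that stood apart left out). PFKFB4, whose product has the stronger phosphatase activity of the pair, was at 4.76, 6.35 and 8.11 TPM in TREM2-KO and at 7.02, 8.88 and 10.7 TPM in TREM2-R47H, lower by -0.43 ± 0.10 (SE; limma adjusted p = 0.00212). Both genes had ranges that overlapped by a few libraries.

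Hexokinases 1 and 2 were higher in TREM2-KO. HK1 was at 65.9, 91.3 and 102 TPM in TREM2-KO and at 59.2, 80.6 and 83.4 TPM in TREM2-R47H (0.29 ± 0.097 SE, limma adjusted p = 0.0294). HK2 was at 26.9, 38.7 and 44.9 TPM in TREM2-KO and at 25.2, 31.1 and 33.4 TPM in TREM2-R47H (0.30 ± 0.090 SE, limma adjusted p = 0.0135). In both, 7 of 8 TREM2-KO libraries were above the TREM2-R47H mean, the exceptions being TREM2-KO 8 for HK1 and TREM2-KO 4 for HK2. The HK1 call was lost without TREM2-R47H 5 or 6 or TREM2-KO 1 or 7 (limma adjusted p of 0.0538 to 0.0799), with no filter (0.0665) and with libraries 5 and 6 averaged (0.109). Both calls were lost with median-ratio scaling (0.168 for HK1 and 0.0944 for HK2) and with the 2 groups fitted alone (0.0639 and 0.0572). HK3 was at 19.7 ± 5.40 TPM in TREM2-KO and 27.3 ± 14.6 in TREM2-R47H and was not called (limma adjusted p = 0.652).

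HIF1A was at 113, 168 and 307 TPM in TREM2-KO and at 91.2, 98.6 and 136 TPM in TREM2-R47H. It was above the TREM2-R47H mean in 8 of 8 TREM2-KO libraries, and the ranges overlapped. The difference was 0.71 ± 0.21 (SE; limma adjusted p = 0.0128), and 0.63 without the 3 libraries that stood apart (limma adjusted p = 0.0278). EPAS1 (0.26, limma adjusted p = 0.456) and EGLN1 (0.19, limma adjusted p = 0.299) were not called. Of the targets NDRG1 came nearest to a call, at 98.8 ± 26.2 TPM in TREM2-KO (SD, n = 8) against 65.9 ± 14.6 in TREM2-R47H (SD, n = 7), with a difference of 0.57 and a limma adjusted p of 0.0576.

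Markers of other states differed between these 2 lines as well. Microglia and macrophage markers were called higher in TREM2-KO for 7 of 17 tested and lower for 1, with sums of 10352 to 14983 TPM against 7461 to 11133. Monocyte and neutrophil markers were higher for 3 of 4 tested, with S100A9 at 685 ± 476 TPM (SD, n = 8) against 36.9 ± 32.2 (SD, n = 7), while MPO and ELANE were at or below 0.03 TPM in every library. Cycling markers were higher for 3 of 8. Their part in the hexokinase, PFKFB and HIF1A differences was not tested. Of 10 tested endothelial and stromal markers only PECAM1, which macrophages also express, was called, and all 7 genes were called with the stromal score as a covariate.

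Genes of the same pathways outside the list were read against the same backgrounds. In TREM2-R47H against WT 3 of 63 tested were called higher and 10 lower, where 2.63% of all genes were higher and 8.77% lower. The 4 with the lowest adjusted p were all lower: PDP1, the phosphatase that switches pyruvate dehydrogenase on (-0.65, limma adjusted p = 3.5e-06), INSIG2, a brake on sterol synthesis (-0.56, 0.00109), ERO1A, an oxidase of the endoplasmic reticulum (-0.30, 0.0011), and P4HA2, a collagen prolyl hydroxylase (-1.40, 0.00287). P4HA2 is also expressed by stromal cells, whose markers were lower in this comparison, and their part in its difference was not tested. PDP1 was at 7.39 ± 1.03 TPM in TREM2-R47H and 12.2 ± 1.39 in WT (SD, n = 7 each), and the groups did not overlap.

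Between TREM2-KO and TREM2-R47H 9 of the 63 were called higher and 7 lower, where 14.7% of all genes were higher and 6.58% lower. PDP1 (0.66, limma adjusted p = 3.7e-07), INSIG2 (0.62, 9.1e-05) and ERO1A (0.30, 0.000318) were higher in TREM2-KO, and MPC1, a subunit of the mitochondrial pyruvate carrier, was lower (-0.52, 0.000213). MPC1 was at 37.0 ± 6.13 TPM in TREM2-KO (SD, n = 8) and 53.1 ± 5.06 in TREM2-R47H (SD, n = 7), without overlap. The 2 comparisons share the TREM2-R47H libraries, so they are not independent.

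No gene of the list was called in either SORL1 line. In SORL1-KO against WT none of 34 was (1.09% of all genes called, 0.256% higher and 0.835% lower, and 3 of the 34 with an unadjusted limma p below 0.05). In SORL1-A528T against WT 0.0471% of all genes were called (0.0269% higher and 0.0202% lower), none of them among the 34, of which 2 had such a p. Between the 2 SORL1 lines 0.0942% were called (0.0337% higher and 0.0606% lower), again none of the 34, and by limma none of these had such a p. PFKFB4 came nearest, at 7.44, 9.43 and 10.8 TPM in SORL1-KO (lowest, median and highest of 7) against 5.29, 6.78 and 9.66 in WT, above the WT mean in 7 of 7 libraries (0.36 ± 0.11 SE, limma adjusted p = 0.0749). EPAS1 was at 15.4 ± 7.02 TPM in SORL1-KO and 14.2 ± 6.01 in SORL1-A528T against 9.65 ± 3.49 in WT (SD, n = 7 each), with limma adjusted p of 0.285 and 0.814. Its highest values were those of SORL1-KO 7 (28.4 TPM) and SORL1-A528T 7 (25.0 TPM), 2 of the libraries that stood apart. Outside the list P4HA2 was called lower in SORL1-KO (-1.29, limma adjusted p = 0.0358), 1 of 63, and none was called in SORL1-A528T. In SORL1-KO 3 of 10 stromal markers were lower too, and their part in the P4HA2 difference was not tested. The library number paired the 2 SORL1 lines (residual correlation of 0.306 to 0.785 over 7 numbers), and no gene of the 34 was called with it as a block. Of the 7 SORL1-KO libraries 3 correlated best with the SORL1-A528T library of their own number.

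The CD33 SNP and INPP5D SNP lines had 2 libraries each, which limits what could be called. None of 34 genes was called in either against WT, where 0% and 0.0337% of all genes were (in INPP5D SNP 0.00673% higher and 0.0269% lower), and 1 and 3 had an unadjusted limma p below 0.05. In CD33 SNP this gene was PFKFB4, at 7.67 and 10.8 TPM against 5.29 to 9.66 in WT (0.33, limma adjusted p = 0.9995). In INPP5D SNP PFKFB3 was at 19.7 and 20.2 TPM, below all 7 WT libraries (-0.36, limma adjusted p = 0.662), and BNIP3L was at 73.6 and 67.7 TPM, above all of them (0.76, limma adjusted p = 0.662). EPAS1 was at 16.1 and 17.9 TPM there against 5.64 to 16.4 in WT (0.82, limma adjusted p = 0.662). Of the 9 hypoxia targets 8 had a positive difference in INPP5D SNP, with a median of 0.34, and of the 16 enzymes 3 did, with a median of -0.10. The median over all genes was -0.009. The share of all genes outside every WT library was not counted for this line, so the positions of PFKFB3 and BNIP3L have no matching background. LDHA was at 533 TPM in INPP5D SNP 1 and 334 in INPP5D SNP 2, and stromal markers summed to 853 and 2241 TPM in these libraries, within the WT range of 190 to 3282.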

How the data were processed

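RNA-seq was made from 40 hMGL libraries, as 150-bp pairs from directional libraries of 500 ng of RNA (integrity number 9 or higher), per the labels. Per the submitters' processing notes, the tools were cutadapt 1.18, STAR 2.7, RSEM 1.3.1 and DESeq2; build and annotation: not given in the sources used here. TPM values, 1 column per library, were deposited by the authors, so no count model was run. Groups came from the genotype labels. Nothing says that libraries are separate cultures, so p-values measure only the spread between them, which may be technical.

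limma 3.58.1 (R 4.3.3) was fitted to log2(TPM + 1) of the kept genes over all 40 libraries, with 7 group means and trended, robust variances, for 8 comparisons (two-sided, Benjamini-Hochberg adjusted). The pseudocount of 1 TPM understates changes of weakly expressed genes. A library number was taken to pair groups where the correlation of deviations from the group means was above 0.1 for every shared number. Procedures were tested on simulated data. The 35 genes, the other lists and the tests were chosen with earlier results of these data known. All 35 genes may be named, and of other pathway genes up to 4 called ones per comparison with the lowest adjusted p. Alternatives were pseudocounts of 0.1 and 5 TPM, no filter, a filter of 5 TPM, median-ratio scaling, fits restricted to 2 groups, the library number as a block, the stromal score as a covariate, and leaving out each CD33 SNP or INPP5D SNP library. Chosen after seeing the data were leaving out 3 libraries, averaging libraries 5 and 6 or 1 and 7, library numbers 1 to 3 or 4 to 6 alone, and leaving out each library of the TREM2 comparisons that had calls.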

Additional observations from a re-analysis of the deposited data

Results flagged for a closer look

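Of 175 gene and group combinations, 28 held a library far from the others of its group by Dixon's criterion, which chance alone would give for about 1 in 20. Of the 28, 23 were in TREM2-KO 8, SORL1-KO 7 and SORL1-A528T 7, which stood apart across all genes. The same share over all genes was not taken, and genes that shift together in 1 library are not separate tests. The count is therefore not a result about these genes in particular.

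In TREM2-KO 8 the values far below the rest of the group were HK1 at 65.9 TPM, HK3 at 9.95 TPM, GAPDH at 1673 TPM and ADM at 3.64 TPM, and PFKFB3 at 40.9 TPM was far above it. In SORL1-KO 7 the low values were ALDOA at 881 TPM, TPI1 at 312 TPM, GAPDH at 1684 TPM, PGK1 at 247 TPM, PKM at 594 TPM and P4HA1 at 28.5 TPM. In SORL1-A528T 7 the low values were GPI at 137 TPM, ALDOA at 939 TPM, TPI1 at 349 TPM, GAPDH at 1779 TPM, PGK1 at 267 TPM, PGAM1 at 158 TPM, ENO1 at 479 TPM, PKM at 733 TPM, LDHA at 210 TPM and LDHB at 431 TPM. PFKFB3 at 34.5 TPM and EGLN1 at 35.9 TPM were the high values of that library.

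In other libraries PGK1 was high in WT 4 at 514 TPM, PDK1, a kinase of pyruvate dehydrogenase, was low in WT 7 at 4.70 TPM, and EPAS1 was high in TREM2-R47H 4 at 16.5 TPM. EGLN3 was high for its group in TREM2-KO 5 at 0.87 TPM and in SORL1-KO 4 at 0.34 TPM, both under 1 TPM.

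PFKP went opposite ways in the 2 TREM2 lines relative to the WT mean, at 0.53 times it in TREM2-KO and 1.57 times it in TREM2-R47H, with every library of each line on its side. The difference between the lines was tested directly (-1.74, limma adjusted p = 5.1e-05). Against WT PFKP was called in neither line in the fit of all libraries. The lowest TREM2-KO values were those of TREM2-KO 4 and 8, at 5.92 and 3.76 TPM.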

How the results depend on the processing

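No gene called in the fit of all libraries changed sign under any alternative run, though genes not called did. Between the number sets the sign differed for 50.0% of the 34 in TREM2-R47H against WT and 58.8% in TREM2-KO against WT. Of 103 counts of called genes or isozyme shares under an alternative 88 stayed within 1.5 times the count reported and 15 did not. A reported count of 0 that stayed 0 is among the 88, and most comparisons and the isozyme shares had such a count. Of 117 values of single called genes 96 kept their call and 21 lost it. These tallies leave out the fits without 1 library. In those, HK2 in TREM2-R47H against WT lost its call in 9 of 14, and HK1 between the TREM2 lines in 4 of 15. Shares of all genes called under the same setting stand in brackets. TREM2-R47H against WT moved most: 6 genes were called with the 2 groups alone (12.7%), 9 with the replicate block (19.6%), 5 without the 3 libraries that stood apart (15.3%), 0 with libraries 5 and 6 averaged (8.31%), 1 with libraries 1 and 7 averaged (9.53%), 12 in numbers 1 to 3 (23.7%), 4 in numbers 4 to 6 (5.47%), and 1 to 3 with 1 library left out (1 without WT 1, 5 or 7 or TREM2-R47H 1, 2, 4 or 7). TREM2-KO against TREM2-R47H gave 11 with the replicate block (25.1%), 11 in numbers 1 to 3 (23.4%) and 7 to 9 with 1 library left out; with median-ratio scaling (19.1%) 2 were higher and 5 lower in place of 4 and 3. TREM2-KO against WT gave 2 with the block (3.95%) and 1 in numbers 1 to 3 (1.98%), SORL1-KO against WT 3 with the block (4.95%) and 1 in numbers 1 to 3 (2.83%), and INPP5D SNP against WT 2 with the 2 groups alone (3.30%) and 5 with the block (10.5%). The numbers did not pair the libraries in the last 2 of these comparisons or between the TREM2 lines (lowest residual correlation -0.105, 0.0212 and 0.0916), and the block changed no other count by over 1.5 times. The isozyme shares gave 0 called under every alternative run. The cause of these changes was not tested.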
